A study of Mus musculus with 9 samples.

Results

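Gene expression in cells carrying a short hairpin RNA against CBFb (CBFb_KD) was compared with that in cells carrying an empty vector (Control). The comparison rests on 3 CBFb_KD and 3 Control arrays, 6 of the 9 arrays of the study, and takes in 18193 genes. The 45101 probe sets were reduced to these by taking, for each gene, the brightest probe set over the 9 arrays among those that carried its symbol alone. The cells were L8057, a mouse megakaryocytic leukaemia line. All groups had been infected with lentivirus, and 48 h later received puromycin, to select infected cells, together with 50 nM of the phorbol ester TPA. RNA was taken 72 h after that, so Control cells had been on the same 3-day TPA course and cells without TPA were not analysed here. The other 3 arrays came from cells with a hairpin against Ring1b (Ring1b_KD), and they are used here for the shared estimate of spread and as a second hairpin population. An empty vector carries no hairpin, so for CBFb_KD against Control the presence of a hairpin and the loss of CBFb cannot be told apart. How many hairpins were used is not given in the sources used here, and all arrays come from 1 cell line. Separate infection of the cultures is not stated in the labels, and the p-values then describe only how far these arrays scattered, which may be technical.

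CBFb is the subunit of the core binding factor that does not touch DNA. It holds the RUNX proteins, which do, in their DNA-binding form and protects them from degradation. In the megakaryocyte lineage RUNX1 is the main partner, and it is required for megakaryocytes to mature and for normal platelets to form. Megakaryocytes grow large, stop dividing while still copying their DNA, fill with granules and membrane, and shed platelets. Phorbol esters such as TPA mimic diacylglycerol, switch on protein kinase C and push megakaryocytic lines along part of this course.

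The targeted transcript was the largest decrease on the array. Cbfb read 12.27, 12.33 and 12.50 in the Control arrays and 9.32, 9.14 and 9.12 in the CBFb_KD arrays (log2 signal), and no CBFb_KD array came near a Control array (log2 difference -3.17, SE 0.0847, limma adjusted p = 3.28e-10). In Ring1b_KD it read 12.16, 12.26 and 12.29. Among its partners, Runx1 read 10.38, 10.36 and 10.43 in the Control arrays and 11.27, 11.93 and 12.04 in the CBFb_KD arrays, all CBFb_KD arrays lying above all Control arrays (log2 difference 1.36, SE 0.174, limma adjusted p = 0.000216). Runx3 differed by -0.19 (limma adjusted p = 0.276) by its brightest probe set, which did not pass the test. A second probe set of Runx3, of similar signal, gave -0.56 (limma adjusted p over all probe sets = 0.00504), and the mean of both gave -0.37 (limma adjusted p = 0.0085), so the call depends on the probe set. Runx2 was not among the 18193 genes and was not analysed here. Of the genes of Polycomb repressive complex 1, Rnf2, which encodes Ring1b, differed by -0.10 (limma adjusted p = 0.479), Ring1 by -0.10 (limma adjusted p = 0.637) and Bmi1 by 0.01 (limma adjusted p = 0.947), none of which passed. The sign of the Bmi1 difference turned when CBFb_KD array 2 or 3, or Control array 1 or 2, was left out.

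Arrays of a group were alike. The correlation over probe sets was 0.9947 to 0.9974 within CBFb_KD and 0.9968 to 0.9973 within Control, against 0.988 to 0.9931 between them. Of 19 defining markers of megakaryocytes, 17 were measured, and 8 of these read at or above the median gene (7.42) in Control. Nfe2, Vwf, Mmrn1, Cd9 and Tubb1 read below 6 in Control. The brightness of a probe set depends on its probes, so a low reading does not show that a transcript was absent. Pf4, the platelet chemokine, read highest of the markers at a mean of 14.42 in Control and 14.73 in CBFb_KD.

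Of the 18193 genes, 2798 (15.4%) passed limma's test at an adjusted p under 0.05 and are called changed here. Of these, 1416 (7.78% of all genes) were higher in CBFb_KD and 1382 (7.6%) were lower. The numbers in both directions were alike, but the sizes were not. At least 2-fold changes numbered 182 higher (1% of genes) and 26 lower (0.143%), and 22 genes rose at least 4-fold whereas Cbfb alone fell that far. The median called increase was 0.51 and the median called decrease -0.42 on the log2 scale, and the median over all genes was -0.01. The groups did not overlap for 2682 genes higher in CBFb_KD (14.7%) and 3076 lower (16.9%). Leaving out CBFb_KD array 2 brought the calls to 1849, with 823 lower, and leaving out Control array 3 brought them to 1751, with 942 higher and 809 lower. Without CBFb_KD array 1, 41 genes were at least 2-fold lower. Where a count is given below with the replicate block, arrays of the same number, those of Ring1b_KD included, were fitted as a block.

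**Figure D1:**
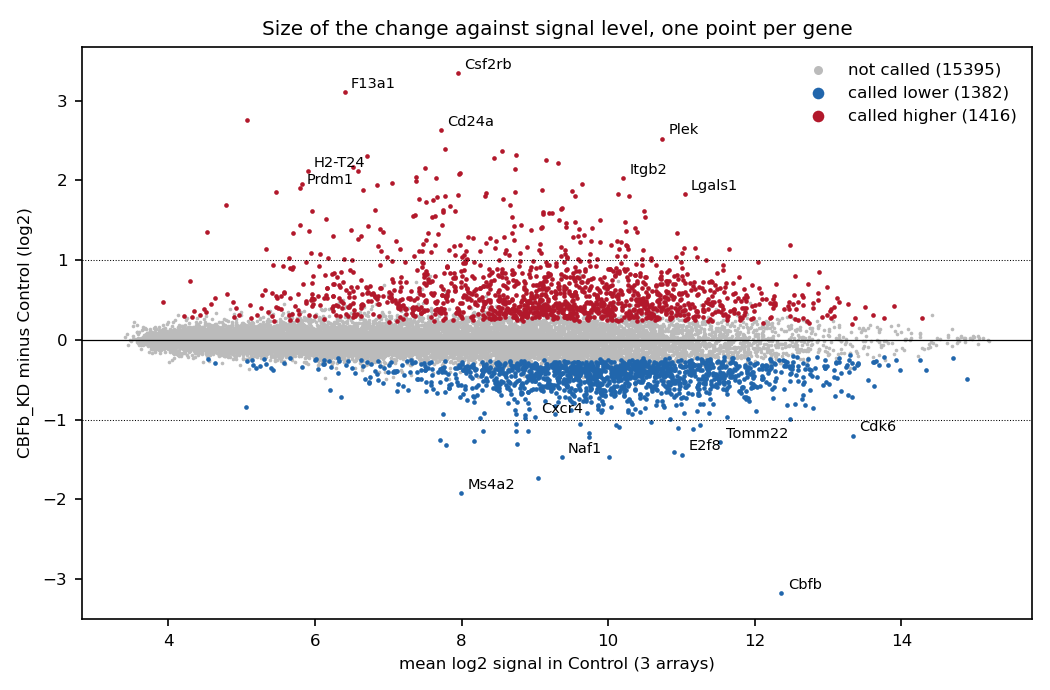
Difference between CBFb_KD and Control (log2, vertical axis) against the mean log2 signal in Control (horizontal axis), 1 point per gene, with called genes in red (higher) and blue (lower) and dotted lines at 2-fold. The upper cloud reaches further from 0 than the lower one, in which Cbfb stands alone at -3.17.

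Most calls were made among brighter genes. When genes were divided into 4 equal groups by their mean over the 9 arrays, the dimmest held 47 higher and 18 lower calls, the next 160 and 74, the third 473 and 445, and the brightest 736 and 845. Divided by the Control mean instead, which is itself a term of the difference, the brightest group held 637 and 931. The part that the floor of the array has in this split was not tested.

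Second probe sets, which the choice of genes had not used, moved the same way for most called genes. Of 838 genes called higher that had another probe set, 766 (91.4%) had the same sign there, and of 916 called lower, 839 (91.6%) did. Fewer second probe sets passed limma's test themselves in the same direction, 409 of the 838 and 419 of the 916. In the opposite direction 2 and 1 passed. For genes not called the share was 64%. Among genes at least 2-fold higher, the sign was shared by 98 of 102, and by 17 of 17 of those at least 2-fold lower. Probe sets of 1 gene share the RNA of an array, so this is a check of the probes and not of the cultures.

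The 40 largest increases, among called genes with arrays that did not overlap, ran from 1.76 to 3.35 on the log2 scale. Csf2rb, the signalling beta chain shared by the receptors for GM-CSF, IL-3 and IL-5, read 8.44, 8.41 and 7.0 in the Control arrays and 10.94, 11.76 and 11.18 in the CBFb_KD arrays (log2 difference 3.35, SE 0.318, limma adjusted p = 2.9e-05). Its mouse paralogue Csf2rb2, which serves the IL-3 receptor, read 5.54, 4.87 and 4.82 in the Control arrays and 7.86, 8.53 and 7.10 in the CBFb_KD arrays (log2 difference 2.76, SE 0.277, limma adjusted p = 4.19e-05). Both rose in every CBFb_KD array, and because the 2 genes are near copies, part of the signal may be shared between their probe sets. F13a1, the A chain of coagulation factor XIII, which cross-links fibrin, read 6.88, 6.39 and 5.95 in the Control arrays and 9.18, 9.83 and 9.51 in the CBFb_KD arrays (log2 difference 3.10, SE 0.215, limma adjusted p = 3e-06). Plek, or pleckstrin, the main substrate of protein kinase C in platelets, read 11.01, 10.75 and 10.44 in the Control arrays and 13.05, 13.36 and 13.37 in the CBFb_KD arrays (log2 difference 2.52, SE 0.33, limma adjusted p = 0.00026). All CBFb_KD arrays of Plek were more than 2 units above all Control arrays, and its Ring1b_KD arrays read 9.97, 10.74 and 8.85, below every CBFb_KD array.

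Other membrane proteins were among the 40. Itgb2, the beta chain of the leukocyte integrins, read 10.48, 10.62 and 9.50 in the Control arrays and 12.12, 12.55 and 12.01 in the CBFb_KD arrays (log2 difference 2.03, SE 0.23, limma adjusted p = 9.36e-05). Plvap, which forms the diaphragms of vascular fenestrae and caveolae, read 8.13, 7.97 and 7.82 in the Control arrays and 9.98, 10.09 and 10.11 in the CBFb_KD arrays (log2 difference 2.09, SE 0.106, limma adjusted p = 2.73e-07). Cd55, a membrane protein that breaks down complement convertases, read 9.49, 9.71 and 9.33 in the Control arrays and 11.05, 11.61 and 11.46 in the CBFb_KD arrays (log2 difference 1.87, SE 0.18, limma adjusted p = 3.28e-05). In each case the lowest CBFb_KD array stood above the highest Control array by more than the spread within either group. Cd24a, a glycosylated surface anchor protein (2.63), Cd200r1, the inhibitory receptor for CD200 (2.05), Ccrl2, an atypical chemoattractant receptor (2.07), H2-T24, a non-classical class I molecule (2.12), and Kcne3, a potassium channel subunit (1.76), rose as well. Lgals1, which encodes the secreted lectin galectin-1, read 11.40, 11.55 and 10.18 in the Control arrays and 12.82, 13.30 and 12.51 in the CBFb_KD arrays, with Control array 3 more than 1 unit below the other Control arrays (log2 difference 1.83, SE 0.319, limma adjusted p = 0.00167).

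Platelet genes stood among the 40. Gp9 encodes a subunit of the glycoprotein Ib-IX-V receptor for von Willebrand factor, and it read 9.02, 8.97 and 8.24 in the Control arrays and 10.95, 11.39 and 10.86 in the CBFb_KD arrays (log2 difference 2.32, SE 0.241, limma adjusted p = 5.23e-05). Treml1, a receptor of platelet granule membranes, read 8.11, 7.79 and 7.97 in the Control arrays and 9.71, 9.73 and 9.89 in the CBFb_KD arrays (log2 difference 1.82, SE 0.104, limma adjusted p = 6.47e-07). P2rx1, the ATP-gated channel of platelets, read 8.63, 8.59 and 7.77 in the Control arrays and 10.02, 10.44 and 10.05 in the CBFb_KD arrays (log2 difference 1.84, SE 0.294, limma adjusted p = 0.000944). Both groups were tight for Treml1 and looser for P2rx1, and neither gene overlapped between groups.

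Also among the 40, Lyl1, a basic helix-loop-helix factor related to Tal1, read 9.54, 9.21 and 9.21 in the Control arrays and 11.64, 11.31 and 11.68 in the CBFb_KD arrays (log2 difference 2.22, SE 0.13, limma adjusted p = 6.6e-07). Prdm1, the repressor Blimp-1, read 5.88, 5.97 and 5.55 in the Control arrays and 7.58, 8.01 and 7.52 in the CBFb_KD arrays (log2 difference 1.90, SE 0.133, limma adjusted p = 3e-06). Cpeb4, which binds polyadenylation elements in mRNA, read 9.32, 9.24 and 8.90 in the Control arrays and 11.26, 11.57 and 11.37 in the CBFb_KD arrays (log2 difference 2.25, SE 0.116, limma adjusted p = 2.73e-07). These 3 genes were tight within both groups. Mxd1, the MAX partner that opposes MYC (2.37), Fosl2, an AP-1 subunit (1.77), Ccng2, an atypical cyclin of arrested cells (1.86), Tent5c, a poly(A) polymerase (1.81), and Pdzk1ip1, a small membrane protein (1.88), also rose. The linker histone gene H1f2 rose by 1.96 and the histone gene H2aw by 1.79, as measured from RNA primed at the poly(A) tail.

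**Figure D2:**
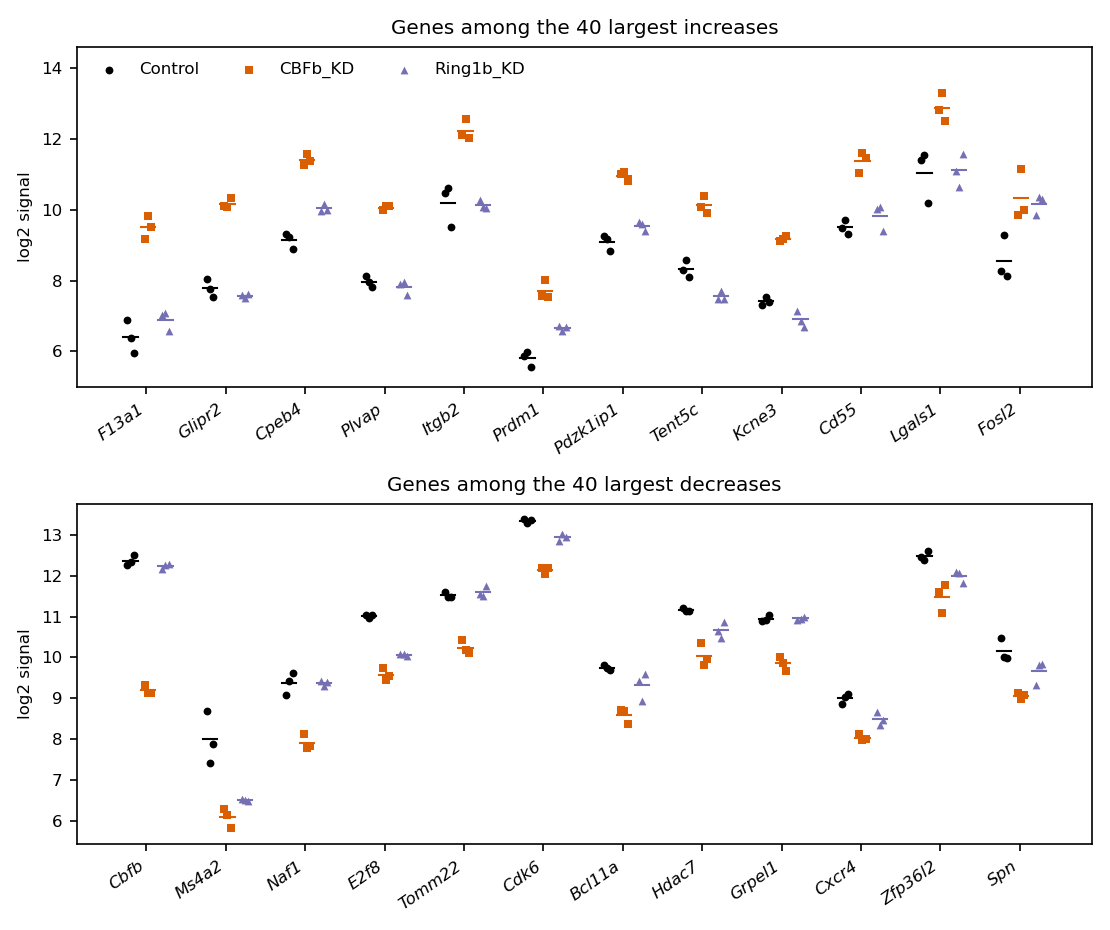
Log2 signal of 12 of the largest increases (top) and 12 of the largest decreases (bottom) in each Control (circles), CBFb_KD (squares) and Ring1b_KD (triangles) array, with a bar at the mean of each group of 3. The CBFb_KD points of each gene lie apart from the Control points, most widely, among the genes drawn, for Cbfb and F13a1.

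The 40 largest decreases, from -3.17 for Cbfb to -0.91, were smaller and included genes of dividing cells. E2f8, a repressive E2F factor that works in endoreplication and in S phase, read 11.03, 10.98 and 11.03 in the Control arrays and 9.74, 9.45 and 9.53 in the CBFb_KD arrays (log2 difference -1.44, SE 0.0831, limma adjusted p = 6.6e-07). Cdk6, the kinase that pairs with D-type cyclins at G1, read 13.38, 13.29 and 13.36 in the Control arrays and 12.20, 12.04 and 12.19 in the CBFb_KD arrays (log2 difference -1.20, SE 0.0666, limma adjusted p = 5.42e-07). The Control arrays of both genes agreed within 0.1, and every CBFb_KD array was at least 1 unit lower. Aurkb, a mitotic kinase (-1.07), Cep55, needed for abscission (-1.22), Cdca3 (-1.0), Uhrf1, which reads hemimethylated DNA (-1.03), Exo1, an exonuclease of DNA repair (-0.91), and Cdca7 (-0.91) fell with them.

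Genes for RNA and mitochondrial assembly were among the decreases as well. Naf1, an assembly factor for H/ACA ribonucleoproteins, telomerase included, read 9.08, 9.41 and 9.61 in the Control arrays and 8.12, 7.77 and 7.82 in the CBFb_KD arrays (log2 difference -1.46, SE 0.128, limma adjusted p = 1.62e-05). Tomm22, the central receptor of the outer-membrane import pore, read 11.61, 11.48 and 11.47 in the Control arrays and 10.41, 10.17 and 10.12 in the CBFb_KD arrays (log2 difference -1.28, SE 0.0946, limma adjusted p = 4.62e-06). Grpel1, the nucleotide exchange factor of the matrix Hsp70, read 10.88, 10.92 and 11.05 in the Control arrays and 10.01, 9.87 and 9.67 in the CBFb_KD arrays (log2 difference -1.10, SE 0.0893, limma adjusted p = 1.04e-05). In Ring1b_KD these genes read 9.41, 9.29 and 9.40, 11.55, 11.49 and 11.75 and 10.92, 10.95 and 10.99, inside or beside the Control ranges. Coa8, a cytochrome oxidase factor (-0.92), and Akap1, which tethers kinase A and mRNA to mitochondria (-0.91), also fell, and the call of Coa8 was lost when its probe sets were averaged (limma adjusted p = 0.0712).

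The remaining decreases included phosphoinositide and blood-cell genes. Mtm1 (-1.40) and Mtmr2 (-1.14), which encode phosphatases of 3-phosphoinositides, both fell. Ms4a2, the beta chain of the high-affinity IgE receptor, read 8.68, 7.42 and 7.88 in the Control arrays and 6.28, 6.14 and 5.81 in the CBFb_KD arrays, with the Control arrays spread over more than 1 unit (log2 difference -1.92, SE 0.23, limma adjusted p = 0.000144). Spn, the surface sialomucin CD43 (-1.09), Cxcr4, the receptor for CXCL12 (-0.97), Fut7, which makes selectin ligands (-1.15), Bcl11a, a repressor of fetal globin (-1.16), Hdac7, a class IIa deacetylase (-1.12), and Zfp36l2, which destabilises mRNA (-1.0), fell too. Gzmb, the serine protease of cytotoxic granules, read 8.91, 9.35 and 8.0 in the Control arrays and 7.4, 7.61 and 7.35 in the CBFb_KD arrays and 11.75, 11.27 and 11.95 in Ring1b_KD. It was the one gene of the 80 with a fall in CBFb_KD and a rise of over 2 log2 units in Ring1b_KD (-1.30 against 2.90).

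RUNX proteins recognise the core TGTGGT, or less often TGCGGT, and the promoters of 2 increases and 2 decreases are shown because they carry it and led their direction among promoters that do. Each window runs from 250 bases before to 50 after a start site of RefSeq on GRCm38.p6, 5′ to 3′ on the strand of the gene, with the core or its reverse complement in capitals. Gp9 lies at chr6:87777820-87778119, plus strand, Cpeb4 at chr11:31870690-31870989, plus strand, Ms4a2 at chr19:11623670-11623969, minus strand and Gzmb at chr14:56262285-56262584, minus strand.
Gp9: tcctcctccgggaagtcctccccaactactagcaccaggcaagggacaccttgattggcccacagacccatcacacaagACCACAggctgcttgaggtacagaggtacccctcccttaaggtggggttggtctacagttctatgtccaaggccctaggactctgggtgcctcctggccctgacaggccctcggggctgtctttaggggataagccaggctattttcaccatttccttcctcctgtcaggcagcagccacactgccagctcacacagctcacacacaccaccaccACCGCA
Cpeb4: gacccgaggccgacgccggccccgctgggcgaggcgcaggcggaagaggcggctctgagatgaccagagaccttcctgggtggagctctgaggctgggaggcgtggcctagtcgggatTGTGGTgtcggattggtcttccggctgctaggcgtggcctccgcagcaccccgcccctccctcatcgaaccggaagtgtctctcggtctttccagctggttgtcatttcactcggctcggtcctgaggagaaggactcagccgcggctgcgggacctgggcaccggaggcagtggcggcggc
Ms4a2: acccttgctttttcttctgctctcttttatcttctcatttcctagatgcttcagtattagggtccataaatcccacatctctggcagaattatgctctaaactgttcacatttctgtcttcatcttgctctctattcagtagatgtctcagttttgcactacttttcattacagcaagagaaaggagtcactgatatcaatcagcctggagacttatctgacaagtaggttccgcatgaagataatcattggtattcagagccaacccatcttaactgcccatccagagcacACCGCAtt
Gzmb: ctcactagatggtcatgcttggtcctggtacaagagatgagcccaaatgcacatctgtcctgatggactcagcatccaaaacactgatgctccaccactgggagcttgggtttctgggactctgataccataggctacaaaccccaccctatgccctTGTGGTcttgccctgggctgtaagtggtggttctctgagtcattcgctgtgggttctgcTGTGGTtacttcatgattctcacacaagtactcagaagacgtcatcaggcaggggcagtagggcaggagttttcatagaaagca
Across the table, 14452 of the genes tested matched 18109 such windows, and either core was found, on either strand, in 21.1% of them. The share was 20.3% for genes called higher and 22.7% for genes called lower. The core was thus about as frequent in the windows of called genes as in all windows. Of the 40 largest increases, 5 of the 32 genes with a window held a core in any of their windows. Of the 40 largest decreases, 9 of 31 did. These counts are of genes and the shares above are of windows, so they cannot be compared directly. A match of 6 letters is a description of the window and no evidence of binding, and RUNX sites outside the window were not searched.

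Many interferon-stimulated genes carry the interferon-stimulated response element in their promoters, searched here on both strands as GAAA repeated after a gap of 2 bases. The windows of Ifit1 (chr19:34640639-34640938, plus strand) and Irgm2 (chr11:58214727-58215026, plus strand) are shown as interferon genes called higher that hold it, in capitals.
Ifit1: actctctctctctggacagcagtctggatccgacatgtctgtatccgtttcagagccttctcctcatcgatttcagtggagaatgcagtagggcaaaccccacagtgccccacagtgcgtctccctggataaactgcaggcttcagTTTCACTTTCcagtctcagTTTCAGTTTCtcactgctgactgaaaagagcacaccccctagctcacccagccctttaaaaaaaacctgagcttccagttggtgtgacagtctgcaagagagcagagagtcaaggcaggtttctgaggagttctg
Irgm2: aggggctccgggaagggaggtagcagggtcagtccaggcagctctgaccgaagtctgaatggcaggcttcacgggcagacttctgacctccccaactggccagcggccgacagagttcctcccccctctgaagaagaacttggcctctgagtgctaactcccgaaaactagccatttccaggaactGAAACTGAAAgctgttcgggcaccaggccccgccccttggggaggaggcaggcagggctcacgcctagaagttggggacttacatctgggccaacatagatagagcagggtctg
The motif was found in 3.03% of all windows and in 16 of the 38 windows (42.1%) of the interferon genes called higher. Among the interferon genes that were not called, it was in 40.9% of 22 windows.

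Across the 67 gene lists, grouped by function and described here by their counts and medians, 8 hold cell type markers. Of the other 59, those with the largest shares called higher were the interferon effector, V-ATPase, platelet signalling and tetraspanin lists. Those with the largest shares called lower were the DNA polymerase, MCM, nucleolar and kinetochore lists. Lists held 12.2% of all genes, 20.3% of the genes called higher and 30.4% of those called lower. Most called genes were thus outside the lists. For lists with fewer than 3 calls in a direction, moves of 1 gene between fits are not given, other than those that the replicate block made and those in marker lists with 0 calls.

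**Figure D3:**
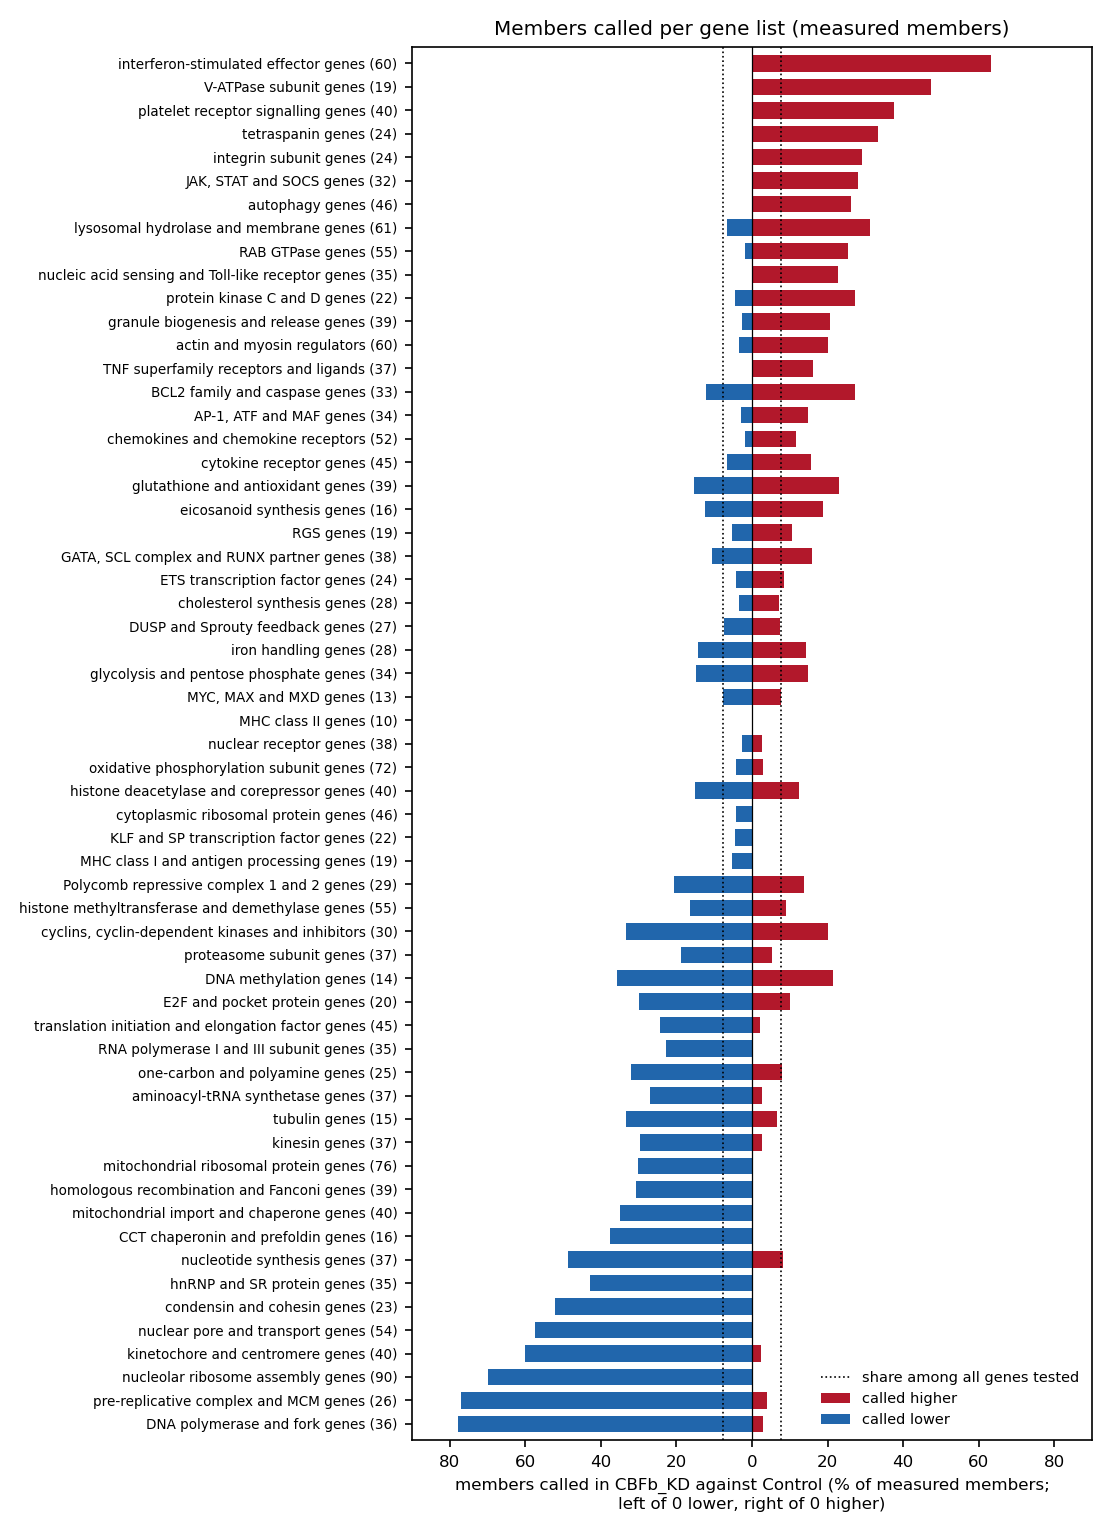
Share of the measured members of each gene list called lower (blue, left of 0) or higher (red, right of 0) in CBFb_KD against Control, in percent, with the number measured in brackets and dotted lines at the shares among all genes (7.6% and 7.78%). Interferon effector genes reach furthest to the right and DNA polymerase and fork genes furthest to the left.

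Megakaryocyte markers were higher where they changed. Of the 17 measured, 6 were called higher and 0 lower (median difference 0.17), against 7.78% and 7.6% of all genes. Beside Gp9 and Treml1 they included Gp5, a further subunit of the von Willebrand factor receptor (1.68), Ppbp, the precursor of platelet CXCL7 (1.62), and Itga2b, the alpha chain of the fibrinogen receptor (1.04). Gp5 read 7.97, 7.87 and 7.70 in the Control arrays and 9.49, 9.62 and 9.46 in the CBFb_KD arrays, a gap of over 1 unit between groups (log2 difference 1.68, SE 0.106, limma adjusted p = 1.2e-06). Itga2b read 11.58, 11.44 and 10.63 in the Control arrays and 12.19, 12.35 and 12.22 in the CBFb_KD arrays (log2 difference 1.04, SE 0.264, limma adjusted p = 0.0169), and its call was lost with CBFb_KD array 2 or Control array 3 left out and with a robust variance prior (limma adjusted p = 0.0592 to 0.0916). Pf4, Gp1bb, Gp6, Selp and Gfi1b did not pass the test.

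Platelet receptor signalling genes showed the same direction. Of 40 measured, 15 were called higher and 0 lower (median 0.16). F2rl2, the thrombin receptor PAR3 of mouse platelets, read 9.33, 9.13 and 8.89 in the Control arrays and 10.51, 10.60 and 11.02 in the CBFb_KD arrays (log2 difference 1.60, SE 0.154, limma adjusted p = 3.21e-05). Lcp2, the adaptor SLP-76, read 9.60, 9.60 and 9.07 in the Control arrays and 10.57, 11.30 and 10.80 in the CBFb_KD arrays (log2 difference 1.47, SE 0.196, limma adjusted p = 0.000298). Each CBFb_KD array was above each Control array in both. Btk (0.91), a kinase downstream of the collagen receptor, Ubash3b (1.02), a phosphatase that restrains SYK, and Rasgrp3 (0.65), a diacylglycerol-sensitive RAS activator, rose as well. Over the list, the median member stood 0.19, 0.19 and 0.26 above the Control mean in CBFb_KD arrays 1, 2 and 3.

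Genes of granule release rose in part. Of 39 granule genes, 8 (20.5%) were called higher and 1 (2.56%) lower, against 7.78% and 7.6% of all genes. Rab27b, a GTPase that docks platelet granules, read 10.36, 10.62 and 9.76 in the Control arrays and 11.32, 11.89 and 11.65 in the CBFb_KD arrays (log2 difference 1.37, SE 0.192, limma adjusted p = 0.000424). Unc13d, the priming factor Munc13-4 (0.69), and the SNARE genes Stx11 (0.48) and Snap23 (0.65) rose too, whereas Rab38, which serves lysosome-related organelles, fell from 12.88, 12.81 and 12.70 in the Control arrays to 11.95, 11.87 and 12.0 in the CBFb_KD arrays (log2 difference -0.86, SE 0.0733, limma adjusted p = 1.56e-05). Of 16 eicosanoid synthesis genes, 3 (18.8%) were called higher and 2 (12.5%) lower. Alox5ap (0.63), which presents arachidonate to 5-lipoxygenase, and Ltc4s (0.65), the leukotriene C4 synthase, rose, and Alox5 itself, the lipoxygenase, fell by 0.87 on the log2 scale. The other calls of that list were lost when single arrays were left out, for Pla2g4a with CBFb_KD array 2 or 3 or Control array 1 or 3 left out and with the values as deposited and under median centring (limma adjusted p = 0.0517 to 0.118) and for Lta4h with CBFb_KD array 2 or 3 or Control array 1 or 2 or 3 left out and under median centring and with probe sets averaged per gene (limma adjusted p = 0.0583 to 0.157, with a difference of -0.20 with probe sets averaged per gene). The 8 called higher among the granule biogenesis and release genes became 5 with CBFb_KD array 3 left out. The 1 called lower among the granule biogenesis and release genes became 2 with CBFb_KD array 1 or Ring1b_KD array 1 or 2 left out or with the replicate block or with the 6 arrays fitted alone or with a robust variance prior or with no intensity trend or with the dimmest genes left out.

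Calls among adhesion and membrane organiser genes were in the higher direction. Of 24 integrin genes, 7 were called higher and 0 lower, among them Itgal, the alpha partner of Itgb2 (0.83), and Itga4, the alpha chain of VLA-4 (0.69). Of 24 tetraspanin genes, 8 were called higher. Tspan33, a tetraspanin that regulates ADAM10 in red cell and platelet precursors, read 7.57, 7.58 and 7.67 in the Control arrays and 9.66, 9.42 and 9.02 in the CBFb_KD arrays (log2 difference 1.75, SE 0.147, limma adjusted p = 1.44e-05). Tspan32 (1.19), Cd81 (1.04) and Tspan17 (0.88) rose with it, and Tspan14 rose by 0.45, a call that was lost with Control array 3 left out (limma adjusted p = 0.0526). The 8 called higher among the tetraspanin genes became 5 with Control array 3 left out. Among the tetraspanin genes, 1 was called lower with Ring1b_KD array 2 or 3 left out or with the replicate block or with the 6 arrays fitted alone.

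Cytoskeletal genes were called in both directions. Of 60 actin and myosin regulators, 12 (20%) were called higher and 2 (3.33%) lower, against 7.78% and 7.6% of all genes. In the brightest of the 4 groups by Control mean, where their median gene lay (10.82), the shares were 14% and 20.5%. Capg, which caps actin filament ends, read 8.75, 8.70 and 8.71 in the Control arrays and 10.15, 10.29 and 10.03 in the CBFb_KD arrays (log2 difference 1.43, SE 0.123, limma adjusted p = 1.59e-05), and Mylk, the smooth muscle type myosin light chain kinase, read 7.79, 7.82 and 7.31 in the Control arrays and 9.17, 9.41 and 8.98 in the CBFb_KD arrays (log2 difference 1.55, SE 0.193, limma adjusted p = 0.000183). Both rises exceeded 1 log2 unit. Flna, or filamin A, which ties actin to the von Willebrand factor receptor (-0.41), and Tagln2 (-0.51) fell. Of 15 tubulin genes, 1 (6.67%) was called higher and 5 (33.3%) lower. Tubb3 rose (0.59) and Tuba8 fell (-0.81). The falls of Tubb5 (-0.32), Tube1 (-0.32) and Tubg1 (-0.45) were each lost without 1 or more single arrays, for Tubb5 with CBFb_KD array 2 or Control array 3 left out (limma adjusted p = 0.063 to 0.0732), for Tube1 with Control array 1 left out (limma adjusted p = 0.0595) and for Tubg1 with CBFb_KD array 2 or Control array 1 or 2 or 3 left out (limma adjusted p = 0.0504 to 0.0912, with a difference of -0.29 without CBFb_KD array 2). Tubb1, the tubulin of platelets, differed by 0.16 (limma adjusted p = 0.325). The 5 called lower among the tubulin genes became 3 with CBFb_KD array 2 or Control array 1 or 3 left out.

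Of 45 cytokine receptor genes, 7 (15.6%) were called higher and 3 (6.67%) lower, the latter near the 7.6% of all genes. Beside Csf2rb and Csf2rb2, Il10rb, shared by the receptors for IL-10 and lambda interferon (0.83), Bmpr2 (0.58) and the erythropoietin receptor gene Epor (0.55) rose. Il17ra (-0.61) and Il27ra (-0.39) fell, as did Kit, the stem cell factor receptor (-0.39), whose call was lost with CBFb_KD array 2 or 3 or Control array 1 or 2 left out (limma adjusted p = 0.0882 to 0.137).

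Genes downstream of those receptors rose in part. Of 32 JAK, STAT, SOCS and IRF genes, 9 were called higher and 0 lower. Cish, a feedback inhibitor induced by STAT5, read 10.33, 10.59 and 9.75 in the Control arrays and 11.43, 12.24 and 11.44 in the CBFb_KD arrays (log2 difference 1.48, SE 0.216, limma adjusted p = 0.000541). Irf7, the interferon regulatory factor that amplifies type I interferon, read 7.55, 7.79 and 7.29 in the Control arrays and 8.74, 9.0 and 8.92 in the CBFb_KD arrays (log2 difference 1.34, SE 0.131, limma adjusted p = 3.41e-05). Both groups stood apart in each gene. Sh2b3, the adaptor LNK that restrains cytokine receptor signalling, rose by 0.73 (limma adjusted p = 0.0023). Irf1 (0.34) and Stat6 (0.46) also passed, calls that were lost for Irf1 with CBFb_KD array 2 or Control array 3 left out (limma adjusted p = 0.0525 to 0.0654) and for Stat6 with CBFb_KD array 2 or 3 or Control array 1 or 3 left out (limma adjusted p = 0.0533 to 0.0778). The 9 called higher among the JAK, STAT and SOCS genes became 3 with Control array 3 left out, 4 with CBFb_KD array 2 left out and 5 with CBFb_KD array 3 left out. Among the JAK, STAT and SOCS genes, 1 was called lower with Ring1b_KD array 1 or 2 left out or with the replicate block or with the 6 arrays fitted alone or with a robust variance prior or with no intensity trend or with probe sets averaged per gene or with the dimmest genes left out.

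Of 37 TNF family genes, 6 (16.2%) were called higher, against 7.78% of all genes, and 0 lower. Tnfsf14, the ligand LIGHT, read 9.21, 9.54 and 9.30 in the Control arrays and 10.56, 11.45 and 10.95 in the CBFb_KD arrays (log2 difference 1.64, SE 0.23, limma adjusted p = 0.00043), and Tnfsf9, the ligand of 4-1BB, rose by 0.97. Of 52 chemokine and receptor genes, 6 (11.5%) were called higher and 1 (1.92%) lower, in all a smaller share than the 15.4% of all genes. Beside Ccrl2 and Ppbp, the decoy receptor gene Ackr1 (1.26), Cxcl3 (1.65) and Ccl5 (0.53) rose. Ackr1 read 8.89, 8.66 and 8.59 in the Control arrays and 9.88, 9.94 and 10.09 in the CBFb_KD arrays, and Cxcr4 was the one member called lower.

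The interferon-stimulated effector genes were the list with the largest share called higher, 38 of 60 measured, with 0 called lower and a median difference of 0.40. Ifit1, which binds uncapped viral RNA, read 8.50, 8.79 and 8.03 in the Control arrays and 10.38, 11.01 and 10.76 in the CBFb_KD arrays (log2 difference 2.28, SE 0.212, limma adjusted p = 2.58e-05). Oasl2, of the oligoadenylate synthetase family, read 7.64, 7.74 and 7.12 in the Control arrays and 9.39, 9.75 and 9.82 in the CBFb_KD arrays (log2 difference 2.16, SE 0.243, limma adjusted p = 9.14e-05). Rnf213, a large ubiquitin ligase, read 9.95, 9.72 and 9.59 in the Control arrays and 10.90, 10.84 and 10.76 in the CBFb_KD arrays (log2 difference 1.08, SE 0.0921, limma adjusted p = 1.56e-05). In all 3 genes the CBFb_KD arrays lay above the Control arrays, and their Ring1b_KD means differed from Control by 0.37, -0.29 and 0.11. Ring1b_KD cells carried a hairpin against another target, and whether a hairpin as such had a part in these rises was not tested. The direct difference between the knockdowns passed limma's test for Ifit1 (adjusted p = 6.15e-05), Oasl2 (adjusted p = 2.6e-05) and Rnf213 (adjusted p = 1.88e-05). Gbp6 (1.37), a guanylate-binding protein, and Oasl1 (0.99) rose as well, and the median member stood 0.37, 0.42 and 0.39 above the Control mean in CBFb_KD arrays 1, 2 and 3.

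Sensors of nucleic acid rose in part. Of 35 sensing and Toll-like receptor genes, 8 were called higher and 0 lower. Ddx58, the RNA sensor RIG-I, read 9.63, 9.46 and 9.20 in the Control arrays and 10.13, 10.42 and 10.35 in the CBFb_KD arrays (log2 difference 0.87, SE 0.126, limma adjusted p = 0.000514), and its signalling adaptor Mavs rose by 0.72. Dhx58, the sensor LGP2 (0.57), Tarbp2, a double-stranded RNA partner of Dicer (0.83), and Irak2 (0.57) rose. Antigen presentation genes held few calls. Of 19 class I genes 0 were called higher and 1 lower, which was Calr (-0.26), a chaperone of the endoplasmic reticulum, whose call was lost with CBFb_KD array 2 or 3 or Control array 1 or 3 left out and with the values as deposited and under median centring and with no intensity trend (limma adjusted p = 0.0563 to 0.126). Of 10 class II genes 0 were called by limma in either direction, and 0 had an unadjusted p under 0.05.

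Genes that license and copy DNA were mostly lower. Of 26 genes of the pre-replicative complex and MCM helicase, 20 were called lower and 1 higher (median -0.47), against 7.6% and 7.78% of all genes. Of 36 polymerase and fork genes, 28 were called lower and 1 higher (median -0.43). Mcm7, a subunit of the helicase, read 13.22, 13.25 and 13.33 in the Control arrays and 12.74, 12.43 and 12.55 in the CBFb_KD arrays (log2 difference -0.70, SE 0.0863, limma adjusted p = 0.000181). Pole3, a small subunit of polymerase epsilon, read 10.51, 10.59 and 10.44 in the Control arrays and 9.85, 9.73 and 9.73 in the CBFb_KD arrays (log2 difference -0.75, SE 0.0745, limma adjusted p = 4.07e-05). The falls were under 1 log2 unit but the groups did not overlap. Mcm6 (-0.59), Mcm4 (-0.57), Orc2 (-0.69), Dbf4 (-0.59), Pola1 (-0.71), Tipin (-0.66) and Lig1 (-0.53) fell with them. The 2 genes called higher were Orc5, lost with CBFb_KD array 3 or Control array 1 left out (limma adjusted p = 0.0549 to 0.077), and Pold4, lost with CBFb_KD array 1 or 2 or 3 or Control array 1 or 3 left out (limma adjusted p = 0.0549 to 0.13). The 20 called lower among the pre-replicative complex and MCM genes became 13 with CBFb_KD array 2 left out.

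Genes of chromosome segregation were lower as well. Of 40 kinetochore and centromere genes, 24 were called lower and 1 higher, and of 23 condensin and cohesin genes, 12 were lower and 0 higher. Mad2l1, of the spindle checkpoint, read 11.20, 11.28 and 11.26 in the Control arrays and 10.57, 10.44 and 10.34 in the CBFb_KD arrays (log2 difference -0.80, SE 0.0812, limma adjusted p = 4.46e-05). Esco2, the cohesin acetyltransferase of S phase, read 8.75, 8.71 and 8.72 in the Control arrays and 7.90, 7.81 and 7.84 in the CBFb_KD arrays (log2 difference -0.88, SE 0.12, limma adjusted p = 0.000356). No CBFb_KD array reached a Control array in either. Zwint (-0.64), Cenpe (-0.68), Nuf2 (-0.59) and Ncapg (-0.63) fell, whereas Cenpt, which links the centromere to the kinetochore, rose (0.60). Of 37 kinesin genes, 11 were lower, Kif2c (-0.70), Kif11 (-0.64) and Kif20b (-0.63) among them, and 1 was higher, Kif26b, lost with Control array 1 or 3 left out (limma adjusted p = 0.0541 to 0.0706). The 11 called lower among the kinesin genes became 6 with CBFb_KD array 2 or Control array 3 left out.

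Homologous recombination and Fanconi genes were called lower in 12 of 39 and higher in 0. Chek1, the checkpoint kinase (-0.68), Topbp1, which activates ATR (-0.61), Rad51ap1 (-0.66) and Brca2 (-0.56) were among them. Regulators of the cycle moved in both directions. Of 30 cyclins, kinases and inhibitors, 6 were called higher and 10 lower. Cdkn2b, the inhibitor p15 of CDK4 and CDK6, read 7.58, 7.84 and 7.36 in the Control arrays and 8.97, 9.11 and 9.31 in the CBFb_KD arrays (log2 difference 1.54, SE 0.132, limma adjusted p = 1.56e-05). Cdkn2d, an inhibitor of the same kinases (0.48), Cdkn2a (0.70) and Ccnd3, cyclin D3 (0.54), rose too. Thus Cdkn2b and Cdkn2d, inhibitors of CDK4 and CDK6, were higher where Cdk6 was lower. Cdk1 (-0.46), Ccnb2 (-0.52) and Wee1 (-0.57) fell.

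Of 20 E2F and pocket protein genes, 6 were called lower and 2 higher. Beside E2f8, Mybl2, which drives genes of late cycle (-0.88), Foxm1, of G2 (-0.46), and E2f4 (-0.50) fell. E2f2 rose by 0.38, a call lost with CBFb_KD array 1 or 3 or Control array 2 or 3 left out (limma adjusted p = 0.0607 to 0.115), and Rb1 by 0.29, a call lost with CBFb_KD array 1 or 3 or Ring1b_KD array 2 or Control array 1 or 2 or 3 left out and with the values as deposited and under median centring and with probe sets averaged per gene (limma adjusted p = 0.0554 to 0.174, with a difference of 0.17 with probe sets averaged per gene). Of 13 genes of the MYC network, 1 was called higher, Mxd1, and 1 lower, Myc (7.69% each way, near the 7.78% and 7.6% of all genes). Mxd1 read 8.40, 9.22 and 8.03 in the Control arrays and 10.37, 11.77 and 10.60 in the CBFb_KD arrays (log2 difference 2.37, SE 0.337, limma adjusted p = 0.000471), and Myc read 11.80, 11.81 and 12.05 in the Control arrays and 11.09, 11.14 and 11.20 in the CBFb_KD arrays (log2 difference -0.74, SE 0.0789, limma adjusted p = 6.32e-05). The activator was lower and its antagonist higher in every CBFb_KD array, and array 2 was the highest of both groups for Mxd1. The 2 called higher among the E2F and pocket protein genes became 0 with CBFb_KD array 1 or 3 or Control array 2 or 3 left out and 1 with Ring1b_KD array 2 or Control array 1 left out or with the values as deposited or under median centring or with probe sets averaged per gene. The 1 called higher among the MYC, MAX and MXD genes became 2 with CBFb_KD array 1 left out or with the replicate block or with the 6 arrays fitted alone.

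Genes of the nucleolar steps of ribosome production were lower. Of 90 nucleolar assembly genes, 63 were called lower and 0 higher (median -0.39). Nop16 read 10.31, 10.19 and 10.30 in the Control arrays and 9.50, 9.34 and 9.32 in the CBFb_KD arrays (log2 difference -0.88, SE 0.0787, limma adjusted p = 1.98e-05), and Tcof1, or treacle, a cofactor of ribosomal RNA transcription, read 9.81, 9.92 and 9.99 in the Control arrays and 9.05, 8.94 and 9.03 in the CBFb_KD arrays (log2 difference -0.90, SE 0.0867, limma adjusted p = 3.25e-05). Ddx21, a nucleolar helicase, fell by 0.67 on the log2 scale. Of 35 subunit genes of RNA polymerases I and III, 8 were lower and 0 higher, Polr3g (-0.79) and Polr1e (-0.52) among them. Genes for the proteins of the ribosome itself held few calls. Of 46 cytoplasmic ribosomal protein genes, 2 were called lower and 0 higher (median 0.01), the falls being Rpl7a (-0.49) and Rps27l (-0.40). The nucleolar list stood at -0.28, -0.51 and -0.39 relative to the Control mean in CBFb_KD arrays 1, 2 and 3, and the ribosomal protein list at 0.02, 0.01 and -0.003. In Ring1b_KD arrays 1, 2 and 3 the nucleolar list was lower as well, at -0.261, -0.323 and -0.104. The 63 called lower among the nucleolar ribosome assembly genes became 39 with Control array 3 left out and 41 with CBFb_KD array 2 left out. The 8 called lower among the RNA polymerase I and III subunit genes became 4 with Control array 3 left out and 5 with CBFb_KD array 2 or 3 left out. The 2 called lower among the cytoplasmic ribosomal protein genes became 4 with CBFb_KD array 1 left out.

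**Figure D4:**
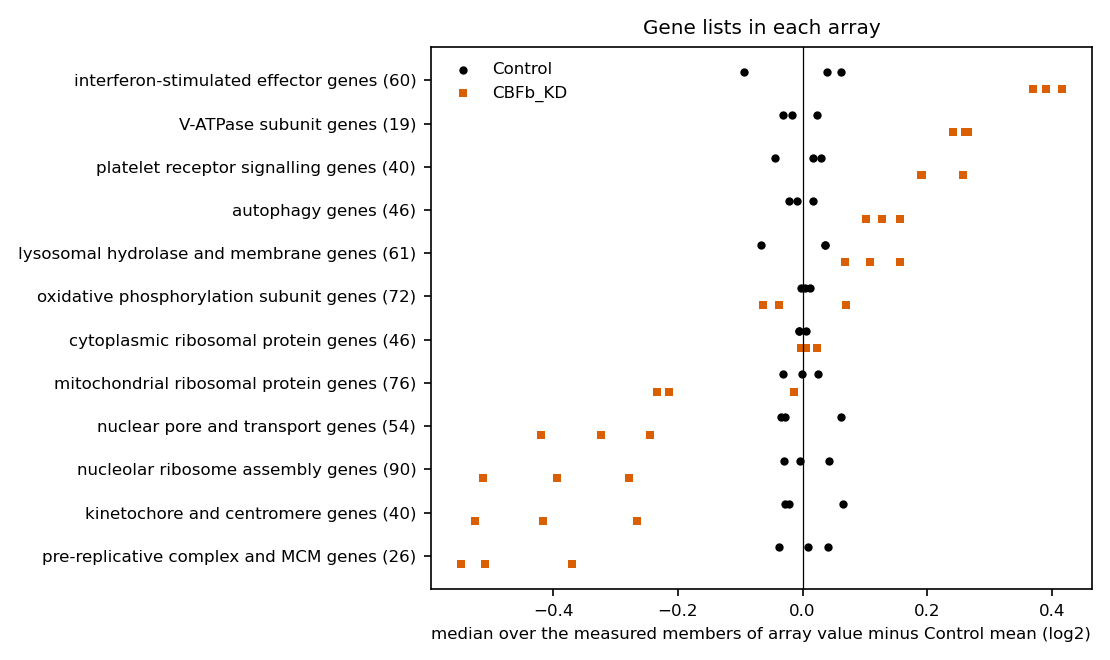
Median over the measured members of 12 gene lists of the array value minus the Control mean (log2, horizontal axis), for each Control (circles) and CBFb_KD (squares) array, with the number measured in brackets. The nucleolar, nuclear pore, kinetochore and MCM lists lie below the Control arrays in all CBFb_KD arrays, while the cytoplasmic ribosomal protein list lies at 0.

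Translation and folding genes were lower in part. Of 45 translation factors, 11 were called lower and 1 higher, Abce1, the ribosome recycling factor (-0.48), and Eif2b5 (-0.55) among the falls. Eif4a2 was the one gene called higher, a call lost with CBFb_KD array 3 or Control array 1 left out and under median centring (limma adjusted p = 0.053 to 0.0667). Of 37 aminoacyl-tRNA synthetase genes, 10 were lower and 1 higher, Eprs the clearest (-0.34, limma adjusted p = 0.01). Ears2, the mitochondrial glutamyl enzyme, was the one called higher (0.88), a call lost with CBFb_KD array 2 or Control array 1 or 3 left out (limma adjusted p = 0.0624 to 0.0688). Of 16 chaperonin and prefoldin genes, 6 were lower and 0 higher, Cct4 (-0.36) and Cct6a (-0.36) among them. Relative to the Control mean, their median member stood at -0.165, -0.333 and -0.228 in CBFb_KD arrays 1, 2 and 3. In Ring1b_KD arrays 1, 2 and 3 it stood at -0.285, -0.194 and -0.0975. Of 37 proteasome genes, 7 were lower and 2 higher, with Psme3, an activator cap (-0.63), Psmd1 (-0.58) and Psmd12 (-0.45) lower and Psmd10 higher (0.41). The shares called lower were 24.4% of translation factors, 27% of synthetase genes, 37.5% of chaperonin and prefoldin genes and 18.9% of proteasome genes. Of all genes 7.6% were called lower, and of the brightest of the 4 groups by Control mean 20.5%. The median proteasome gene read 11.85 in Control, within that group (9.41 and above). The proteasome share was thus no larger than that of the brightest group. The 11 called lower among the translation initiation and elongation factor genes became 6 with Control array 3 left out and 7 with CBFb_KD array 2 or Control array 2 left out. The 10 called lower among the aminoacyl-tRNA synthetase genes became 1 with CBFb_KD array 2 or Control array 3 left out, 4 with CBFb_KD array 3 left out and 5 with Control array 2 left out. Among the CCT chaperonin and prefoldin genes, 1 was called higher with Ring1b_KD array 1 or 3 left out or with the replicate block or with the 6 arrays fitted alone. The 6 called lower among the CCT chaperonin and prefoldin genes became 2 with Control array 3 left out and 3 with CBFb_KD array 3 left out. The 7 called lower among the proteasome subunit genes became 4 with CBFb_KD array 2 or Control array 2 or 3 left out.

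Mitochondrial genes of translation and import were called in the lower direction. Of 76 mitochondrial ribosomal protein genes, 23 were called lower and 0 higher (median -0.15), and of 40 import and chaperone genes, 14 were lower and 0 higher. Mrpl12, which also binds the mitochondrial RNA polymerase, read 10.90, 10.99 and 11.08 in the Control arrays and 10.55, 10.11 and 10.12 in the CBFb_KD arrays (log2 difference -0.73, SE 0.113, limma adjusted p = 0.000789). Mrps25 (-0.61), Mrps28 (-0.62), Timm8a1 (-0.59) and Timm9 (-0.58) fell as well. Respiratory chain genes held few calls. Of 72 subunit genes, 2 were called higher and 3 lower (median -0.01). Those higher were Ndufa6 (0.44) and Uqcrh (0.28), and the lower ones were Ndufv2, lost with CBFb_KD array 3 or Control array 3 left out and with probe sets averaged per gene (limma adjusted p = 0.0564 to 0.0644), Atp5j2, lost with CBFb_KD array 2 or 3 or Control array 1 or 2 or 3 left out and under median centring and with no intensity trend and with probe sets averaged per gene (limma adjusted p = 0.083 to 0.315, with a difference of -0.11 with probe sets averaged per gene), and Cox5a, lost with CBFb_KD array 2 or 3 or Control array 1 or 2 or 3 left out and under median centring and with no intensity trend and with probe sets averaged per gene (limma adjusted p = 0.0657 to 0.177). For the mitochondrial ribosomal proteins the median member stood at -0.01, -0.23 and -0.21 in CBFb_KD arrays 1, 2 and 3, so 1 array carried little of the fall. Among the mitochondrial ribosomal protein genes, 1 was called higher with Ring1b_KD array 1 or 3 left out or with the replicate block or with the 6 arrays fitted alone or with the dimmest genes left out. The 23 called lower among the mitochondrial ribosomal protein genes became 8 with Control array 3 left out, 9 with CBFb_KD array 2 left out, 10 with CBFb_KD array 3 left out and 12 with Control array 2 left out. The 14 called lower among the mitochondrial import and chaperone genes became 7 with CBFb_KD array 2 or 3 or Control array 3 left out and 8 with Control array 1 or 2 left out. The 2 called higher among the oxidative phosphorylation subunit genes became 4 with Ring1b_KD array 3 left out or with the 6 arrays fitted alone and 5 with the replicate block. The 3 called lower among the oxidative phosphorylation subunit genes became 0 with CBFb_KD array 3 or Control array 3 left out, 1 with CBFb_KD array 2 or Control array 1 or 2 left out or under median centring or with no intensity trend or with probe sets averaged per gene and 6 with CBFb_KD array 1 left out.

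Genes of nucleotide synthesis were mostly called lower where they changed. Of 37 nucleotide synthesis genes, 18 were called lower and 3 higher. Cad, the enzyme of the first steps of pyrimidine synthesis, read 10.97, 10.76 and 11.05 in the Control arrays and 10.33, 9.85 and 10.17 in the CBFb_KD arrays (log2 difference -0.81, SE 0.133, limma adjusted p = 0.00109), and Gart, a purine enzyme, read 11.41, 11.39 and 11.51 in the Control arrays and 10.78, 10.47 and 10.64 in the CBFb_KD arrays (log2 difference -0.81, SE 0.0986, limma adjusted p = 0.000162). Ppat (-0.53), Pfas (-0.61) and Prps2 (-0.63), of the same purine route, fell. Ada, which breaks down adenosine, rose by 1.31 (limma adjusted p = 2.88e-05). The other increases were Pnp, lost with Control array 3 left out (limma adjusted p = 0.0527), and Adk, lost with CBFb_KD array 2 or 3 or Control array 1 or 3 left out and with the values as deposited and under median centring and with probe sets averaged per gene (limma adjusted p = 0.0532 to 0.158). Of 25 one-carbon and polyamine genes, 8 were lower and 2 higher, with Mthfd1 (-0.69), Shmt2 (-0.61) and the folate carrier Slc19a1 (-0.55) lower. Smox, lost with CBFb_KD array 1 or 2 or Ring1b_KD array 2 or Control array 2 or 3 left out and with the values as deposited and under median centring and with the 6 arrays fitted alone and with a robust variance prior and with probe sets averaged per gene (limma adjusted p = 0.0519 to 0.174), and Sat1, lost with CBFb_KD array 1 or 2 or 3 or Ring1b_KD array 1 or 2 or Control array 1 or 2 or 3 left out and with the values as deposited and under median centring and with probe sets averaged per gene (limma adjusted p = 0.0512 to 0.208), both of polyamine breakdown, were called higher. The 3 called higher among the nucleotide synthesis genes became 1 with Control array 3 left out. The 2 called higher among the one-carbon and polyamine genes became 0 with CBFb_KD array 1 or 2 or Ring1b_KD array 2 or Control array 2 or 3 left out or with the values as deposited or under median centring or with probe sets averaged per gene and 1 with Ring1b_KD array 1 or Control array 1 left out or with the 6 arrays fitted alone or with a robust variance prior or with the dimmest genes left out. The 8 called lower among the one-carbon and polyamine genes became 4 with CBFb_KD array 2 or 3 or Control array 3 left out and 5 with Control array 1 left out.

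Calls among nuclear transport and RNA-binding genes were all in the lower direction. Of 54 nuclear pore and transport genes, 31 were called lower and 0 higher (median -0.34). Kpna2, an importin alpha that peaks in dividing cells, read 12.52, 12.53 and 12.60 in the Control arrays and 11.83, 11.60 and 11.79 in the CBFb_KD arrays (log2 difference -0.81, SE 0.0734, limma adjusted p = 2.05e-05), and Nup210, a membrane nucleoporin, fell by 0.77 on the log2 scale. Nup37 (-0.55) and Ranbp1 (-0.58) fell. Of 35 hnRNP and SR protein genes, 15 were lower and 0 higher, Hnrnpd, which destabilises AU-rich mRNA (-0.71), Srsf2 (-0.56) and Syncrip (-0.57) among them. The 31 called lower among the nuclear pore and transport genes became 17 with CBFb_KD array 2 left out and 20 with CBFb_KD array 3 left out. The 15 called lower among the hnRNP and SR protein genes became 8 with Control array 1 or 3 left out and 9 with CBFb_KD array 2 or Control array 2 left out.

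Genes of the degradative compartments rose in part. Of 61 lysosomal genes, 19 were called higher and 4 lower. Of 19 subunit genes of the proton pump that acidifies them, 9 were higher and 0 lower (median 0.29), and of 46 autophagy genes, 12 were higher and 0 lower. Laptm5, a lysosomal membrane protein of blood cells, read 10.58, 10.60 and 10.32 in the Control arrays and 11.80, 12.20 and 12.13 in the CBFb_KD arrays (log2 difference 1.54, SE 0.11, limma adjusted p = 3.37e-06). Atp6v1d, a stalk subunit of the pump, read 10.82, 11.04 and 10.80 in the Control arrays and 11.45, 11.70 and 11.61 in the CBFb_KD arrays (log2 difference 0.70, SE 0.0921, limma adjusted p = 0.000279). Gabarapl2, an ATG8 protein of autophagosomes, read 10.49, 10.56 and 10.47 in the Control arrays and 11.10, 11.46 and 11.30 in the CBFb_KD arrays (log2 difference 0.78, SE 0.0945, limma adjusted p = 0.000145). The groups lay apart in all 3. Grn, or progranulin (0.94), Ctsl, or cathepsin L (0.81), Lgmn (0.57), Atp6v0b (0.67), Sqstm1, the cargo receptor p62 (0.56), Wipi1 (0.79) and Ulk1 (0.45) rose. Scarb2, the receptor that carries glucocerebrosidase (-0.77), Gnptab, which tags hydrolases for the lysosome (-0.57), and Manba (-0.44) fell. The 19 called higher among the lysosomal hydrolase and membrane genes became 12 with Control array 2 or 3 left out. The 9 called higher among the V-ATPase subunit genes became 5 under median centring. The median V-ATPase member stood 0.266, 0.261 and 0.241 above the Control mean in CBFb_KD arrays 1, 2 and 3. In Ring1b_KD arrays 1, 2 and 3 it stood 0.181, 0.269 and 0.0929 above.

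RAB GTPases, which direct vesicle traffic, were called higher in 14 of 55 and lower in 1, Rab38. Rab11a, of recycling endosomes, read 11.92, 12.0 and 11.97 in the Control arrays and 12.47, 12.81 and 12.67 in the CBFb_KD arrays (log2 difference 0.69, SE 0.086, limma adjusted p = 0.000192). Rab20 (1.08), Rab43 (0.59) and Rab9 (0.55) rose. The 14 called higher among the RAB GTPase genes became 7 with CBFb_KD array 3 left out, 8 with CBFb_KD array 2 or Control array 3 left out and 9 under median centring. The 1 called lower among the RAB GTPase genes became 2 with Control array 3 left out and 3 with probe sets averaged per gene.

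Metabolic lists showed calls in both directions. The cholesterol list, at 7.14% higher and 3.57% lower, was not above the 7.78% and 7.6% of all genes. Of 34 glycolysis and pentose phosphate genes, 5 were called higher and 5 lower, with Aldoc (0.98), Pkm (0.59) and Hk1 (0.43) higher and Pfkl (-0.68) and the lactate carrier gene Slc16a1 (-0.59) lower. Of 39 glutathione and antioxidant genes, 9 were higher and 6 lower. Txnip, which binds thioredoxin and limits glucose uptake, read 9.67, 9.62 and 9.28 in the Control arrays and 10.74, 11.10 and 10.61 in the CBFb_KD arrays (log2 difference 1.29, SE 0.174, limma adjusted p = 0.000313), while Txn1, thioredoxin itself, was lower (-0.42). Gpx4, which reduces lipid peroxides (0.66), Mgst2 (1.07) and Cat (0.45) rose, and Gstp1 fell (-0.64). Of 28 iron handling genes, 4 were higher and 4 lower, with Tfr2 (0.71) and Ncoa4, the ferritin autophagy receptor (0.57), higher and the ferrireductase gene Steap3 (-0.61) and the heme exporter gene Flvcr1 (-0.73) lower. Of 28 cholesterol synthesis genes, 2 were higher and 1 lower, calls that moved with the fit, being lost for Srebf1 with CBFb_KD array 1 or 2 or Control array 3 left out and with a robust variance prior (limma adjusted p = 0.0548 to 0.0844, with a difference of 0.48 without Control array 3), Insig2 with CBFb_KD array 2 or 3 or Control array 2 or 3 left out (limma adjusted p = 0.0784 to 0.125) and Scap with CBFb_KD array 2 or 3 or Control array 1 or 2 or 3 left out and under median centring and with probe sets averaged per gene (limma adjusted p = 0.0565 to 0.203, with a difference of -0.18 with probe sets averaged per gene). The 5 called lower among the glycolysis and pentose phosphate genes became 2 with CBFb_KD array 3 left out and 3 with Control array 1 or 2 left out. The 9 called higher among the glutathione and antioxidant genes became 5 with CBFb_KD array 2 or 3 or Control array 3 left out. The 6 called lower among the glutathione and antioxidant genes became 2 with Control array 2 or 3 left out and 3 with Control array 1 left out. The 4 called higher among the iron handling genes became 2 with CBFb_KD array 2 or Control array 3 left out. The 4 called lower among the iron handling genes became 2 with CBFb_KD array 1 or 3 or Control array 1 or 2 left out or with probe sets averaged per gene. The 2 called higher among the cholesterol synthesis genes became 0 with CBFb_KD array 2 or Control array 3 left out and 1 with CBFb_KD array 1 or 3 or Control array 2 left out or with a robust variance prior. The 1 called lower among the cholesterol synthesis genes became 0 with CBFb_KD array 2 or 3 or Control array 1 or 2 or 3 left out or under median centring or with probe sets averaged per gene, 5 with Ring1b_KD array 3 left out and 6 with the 6 arrays fitted alone.

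Among transcription factors, those that work with RUNX1 in megakaryocytes changed in both directions. Of 38 genes of the GATA, SCL and RUNX partner list, 6 (15.8%) were called higher and 4 (10.5%) lower. Cbfb itself, the target of the hairpin, is counted among the 4 lower. Of all genes, 7.78% were called higher and 7.6% lower. Beside Lyl1 and Runx1, Tal1 (0.54), Ldb1, which bridges SCL complexes (0.48), and Zfpm1, the GATA1 cofactor FOG1 (0.53), rose. Tal1 read 11.87, 11.85 and 11.95 in the Control arrays and 12.46, 12.35 and 12.47 in the CBFb_KD arrays, a small shift with no overlap (log2 difference 0.54, SE 0.102, limma adjusted p = 0.00294). Ikzf1, the lymphoid and myeloid factor Ikaros, fell by 0.70 on the log2 scale (limma adjusted p = 0.00157). Myb fell by 0.43, a call lost with CBFb_KD array 2 or Control array 1 or 2 or 3 left out (limma adjusted p = 0.0512 to 0.105, with a difference of -0.27 without CBFb_KD array 2), and Kat6a by 0.39, a call lost with Control array 3 left out (limma adjusted p = 0.0607). Of 24 ETS genes, 2 (8.33%) were higher and 1 (4.17%) lower, against 7.78% and 7.6% of all genes. Fli1, a megakaryocyte factor that acts with RUNX1, read 11.27, 11.32 and 11.35 in the Control arrays and 11.71, 12.06 and 12.02 in the CBFb_KD arrays (log2 difference 0.62, SE 0.112, limma adjusted p = 0.0022), and Etv5 fell (-0.72). Elf1 rose by 0.52, a call lost with CBFb_KD array 2 or 3 or Ring1b_KD array 1 or Control array 1 or 3 left out and with the values as deposited and under median centring and with a robust variance prior (limma adjusted p = 0.0591 to 0.199). The 4 called lower among the GATA, SCL complex and RUNX partner genes became 2 with Control array 3 left out.

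Other factor families held few calls. The KLF and SP list (4.55% lower) and the nuclear receptor list (2.63% each way) were below the 7.78% higher and 7.6% lower of all genes. Of 34 AP-1, ATF and MAF genes, 5 were called higher and 1 lower, with Atf6 (0.84) and Ddit3, or CHOP (0.77), both of the unfolded protein response, beside Fosl2. Crem rose by 1.61, lost with Control array 3 left out and with a robust variance prior (limma adjusted p = 0.0608 to 0.088), Atf5 by 0.41, lost with CBFb_KD array 1 or 3 or Control array 1 or 2 left out (limma adjusted p = 0.0759 to 0.0842), and Jund fell by 0.27, lost with CBFb_KD array 1 or 3 or Control array 2 or 3 left out and under median centring and with probe sets averaged per gene (limma adjusted p = 0.0527 to 0.522, with a difference of -0.09 with probe sets averaged per gene). Of 22 KLF and SP genes, 0 were higher and 1 lower, which was Klf5 (-0.89). Of 38 nuclear receptor genes, 1 was higher and 1 lower, the latter the clock repressor gene Nr1d2 (-0.87), the former Nr4a2 (1.81), lost with CBFb_KD array 2 or Control array 1 or 3 left out and with the 6 arrays fitted alone and with a robust variance prior and with probe sets averaged per gene (limma adjusted p = 0.0618 to 0.149, with a difference of 0.92 with probe sets averaged per gene). Among the KLF and SP transcription factor genes, 1 was called higher with CBFb_KD array 3 or Ring1b_KD array 1 or Control array 2 left out or with the values as deposited or with probe sets averaged per gene or with the dimmest genes left out and 2 were called higher with Ring1b_KD array 3 left out or with the replicate block or with the 6 arrays fitted alone. The 1 called higher among the nuclear receptor genes became 0 with CBFb_KD array 2 or Control array 1 or 3 left out or with the 6 arrays fitted alone and 2 with the values as deposited or under median centring or with the replicate block or with no intensity trend or with the dimmest genes left out.

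Chromatin lists were divided as well. Of all genes, 7.78% were called higher and 7.6% lower. Of 29 Polycomb genes, 4 (13.8%) were called higher and 6 (20.7%) lower. The PRC2 core genes Ezh2, the methyltransferase, and Suz12 read 9.74, 9.75 and 9.82 in the Control arrays and 9.31, 9.03 and 9.12 in the CBFb_KD arrays for the first (log2 difference -0.61, SE 0.115, limma adjusted p = 0.00268) and 9.53, 9.63 and 9.66 in the Control arrays and 9.12, 8.98 and 8.90 in the CBFb_KD arrays for the second (log2 difference -0.60, SE 0.0834, limma adjusted p = 0.000378). The accessory genes Jarid2 (0.69) and Phf1 (0.56) rose. Of 14 DNA methylation genes, 3 (21.4%) were higher and 5 (35.7%) lower. The methyltransferase genes Dnmt1 (-0.39) and Dnmt3b (-0.90) and the helicase gene Hells (-0.68) fell with Uhrf1, while Tet2, which oxidises methylcytosine (0.43), and Mbd2 (0.78) rose. Dnmt3a rose by 0.40, a call lost with CBFb_KD array 3 or Control array 1 or 2 left out (limma adjusted p = 0.0577 to 0.0704). Of 40 deacetylase and corepressor genes, 5 (12.5%) were higher and 6 (15%) lower. Their median gene read 10.11 in Control, within the brightest of the 4 groups by Control mean. In that group 14% of genes were called higher and 20.5% lower, so neither share of the list was above it. Of 55 histone methylation genes, 5 (9.09%) were higher and 9 (16.4%) lower, Setd6 (-0.72) and Suv39h2 (-0.59) among the falls. The 4 called higher among the Polycomb repressive complex 1 and 2 genes became 2 with Control array 2 or 3 left out. The 6 called lower among the Polycomb repressive complex 1 and 2 genes became 2 with CBFb_KD array 2 or Control array 3 left out and 3 with Control array 2 left out. The 5 called higher among the histone deacetylase and corepressor genes became 3 with CBFb_KD array 1 or 2 or Control array 1 or 2 or 3 left out or under median centring. The 6 called lower among the histone deacetylase and corepressor genes became 1 with CBFb_KD array 2 or Control array 3 left out and 3 with Control array 1 or 2 left out. The 5 called higher among the histone methyltransferase and demethylase genes became 3 with Control array 1 or 2 left out or with probe sets averaged per gene. The 9 called lower among the histone methyltransferase and demethylase genes became 3 with CBFb_KD array 2 left out, 4 with Control array 3 left out and 5 with Control array 2 left out.

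Genes on the route of TPA were among the increases. Of 22 protein kinase C, kinase D and diacylglycerol genes, 6 were called higher and 1 lower. Dgkd, a kinase that removes diacylglycerol, read 10.15, 10.02 and 9.91 in the Control arrays and 10.97, 10.85 and 10.94 in the CBFb_KD arrays (log2 difference 0.89, SE 0.0974, limma adjusted p = 7.54e-05). Dgka (0.73) and Dgkz (0.63), of the same family, and Prkca, the classical kinase C alpha (0.60), rose, while Prkch fell (-0.44). Of 27 feedback genes of the MAP kinases, 2 (7.41%) were higher and 2 (7.41%) lower, near the 7.78% and 7.6% of all genes. Dusp10, which acts on p38 and JNK, rose by 1.13, and Dusp7, which acts on ERK, fell by 0.57. The other calls were Dusp2, lost with CBFb_KD array 3 or Control array 2 or 3 left out (limma adjusted p = 0.0549 to 0.0655), and Dusp12, lost with CBFb_KD array 2 or 3 or Control array 1 or 2 or 3 left out and with probe sets averaged per gene (limma adjusted p = 0.0782 to 0.161, with a difference of -0.16 with probe sets averaged per gene). Of 19 RGS genes, 2 (10.5%) were higher and 1 (5.26%) lower, the latter Rgs19 (-0.52). Rgs18, the main RGS gene of platelets, rose by 0.64, a call lost with CBFb_KD array 2 or 3 or Control array 3 left out and under median centring and with a robust variance prior (limma adjusted p = 0.0615 to 0.134), and the call of Rgs14 was lost with CBFb_KD array 1 or 2 or Control array 2 or 3 left out (limma adjusted p = 0.0599 to 0.116). The 2 called higher among the RGS genes became 0 with CBFb_KD array 2 or Control array 3 left out, 1 with CBFb_KD array 3 or Control array 2 left out or under median centring or with a robust variance prior and 4 with the replicate block.

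Of 33 BCL2 family and caspase genes, 9 were called higher and 4 lower. Genes that protect from death and genes that bring it on rose side by side. Bcl2l1, whose product BCL-XL sets platelet lifespan, read 10.17, 10.04 and 10.13 in the Control arrays and 11.12, 10.84 and 10.95 in the CBFb_KD arrays (log2 difference 0.86, SE 0.1, limma adjusted p = 0.000121), and Bcl2l11, the killer BIM, read 10.07, 10.96 and 10.06 in the Control arrays and 11.18, 12.46 and 11.64 in the CBFb_KD arrays (log2 difference 1.40, SE 0.288, limma adjusted p = 0.00499). Cflar (1.23), Mcl1 (0.65) and Birc3 (0.64), which block caspases or BAX and BAK, rose too. Birc5, or survivin, of the passenger complex, fell (-0.54). Diablo, lost with CBFb_KD array 2 or Control array 3 left out (limma adjusted p = 0.051 to 0.052), Cycs, lost with CBFb_KD array 2 or Control array 2 or 3 left out and under median centring and with probe sets averaged per gene (limma adjusted p = 0.064 to 0.139), and Bcl2, lost with CBFb_KD array 2 or 3 or Control array 1 or 3 left out (limma adjusted p = 0.125 to 0.181), were also called lower. The 9 called higher among the BCL2 family and caspase genes became 5 with CBFb_KD array 3 or Control array 3 left out. The 4 called lower among the BCL2 family and caspase genes became 1 with CBFb_KD array 2 or Control array 3 left out.

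Markers of other cell types were read in the same arrays. T and NK cell markers (16 measured) and B and plasma cell markers (15 measured) gave 0 calls by limma, with 1 gene of each list at an unadjusted p under 0.05. Erythroid markers were called higher in 6 of 18 and lower in 2. Alas2, the erythroid enzyme of heme synthesis, read 5.94, 6.09 and 5.85 in the Control arrays and 7.61, 8.19 and 6.92 in the CBFb_KD arrays (log2 difference 1.61, SE 0.218, limma adjusted p = 0.000313), and Rhag, a red cell membrane channel, read 5.09, 4.66 and 4.62 in the Control arrays and 6.76, 7.04 and 5.63 in the CBFb_KD arrays (log2 difference 1.69, SE 0.268, limma adjusted p = 0.000919). CBFb_KD array 3 was the lowest of its group in both and still above every Control array. Epb42 (1.10) and Ank1 (0.79), of the red cell skeleton, rose, and Car1 fell (-0.72). Tfrc, the transferrin receptor, fell by 0.58, a call lost with CBFb_KD array 1 or 3 or Control array 1 or 2 left out and with probe sets averaged per gene (limma adjusted p = 0.0507 to 0.134). The mean signal of the erythroid list was 8.60 to 8.77 in the Control arrays and 8.87 to 9.10 in the CBFb_KD arrays.

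Endothelial markers were called higher in 4 of 16, and 0 were lower. Beside Plvap these were Eng, the coreceptor endoglin (0.80), Tie1 (0.91), lost with CBFb_KD array 2 left out (limma adjusted p = 0.0667), and Egfl7 (0.38), lost with CBFb_KD array 2 or 3 or Ring1b_KD array 1 or Control array 1 or 2 or 3 left out and with the values as deposited and under median centring (limma adjusted p = 0.0599 to 0.203). The mean signal of that list was 7.15 to 7.23 in the Control arrays and 7.45 to 7.49 in the CBFb_KD arrays. The median difference over its members was smaller, 0.06. The median member stood 0.156, 0.038 and 0.068 above the Control mean in CBFb_KD arrays 1, 2 and 3. Of 15 mast cell and basophil markers, 1 (6.67%) was higher, Hdc, which makes histamine (1.11), and 3 (20%) were lower, Ms4a2 among them. Of all genes, 7.78% were called higher and 7.6% lower. The granulocyte and macrophage list (4.55% each way) and the fibroblast list (6.67% higher) were below these shares. Of 22 granulocyte and macrophage markers, Prtn3 rose (1.42) and Ctsg fell (-0.69), the latter lost with CBFb_KD array 1 or 2 or 3 or Control array 1 or 2 or 3 left out and with a robust variance prior and with probe sets averaged per gene (limma adjusted p = 0.0528 to 0.144). Of 15 fibroblast markers 1 was higher, Vim (0.45), lost with CBFb_KD array 2 or 3 or Ring1b_KD array 1 or Control array 1 or 3 left out and under median centring and with probe sets averaged per gene (limma adjusted p = 0.0548 to 0.173). Several of these genes are also made by megakaryocytes, their progenitors or leukaemia lines, and in RNA from whole cultures more cells of a type and more RNA per cell cannot be told apart. Whether the makeup of the cultures had a part in the changes was not tested. The 1 called higher among the mast cell and basophil markers became 2 with CBFb_KD array 3 or Ring1b_KD array 3 left out or with the replicate block or with the 6 arrays fitted alone or with probe sets averaged per gene. The 3 called lower among the mast cell and basophil markers became 1 with CBFb_KD array 2 or Control array 2 left out. The 4 called higher among the endothelial markers became 2 with CBFb_KD array 2 left out. Among the B and plasma cell markers, 1 was called lower with the replicate block or with probe sets averaged per gene. Among the T and NK cell markers, 1 was called higher with CBFb_KD array 1 left out.

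The direct test between CBFb_KD and Ring1b_KD, which sets both hairpin populations against each other, called 3536 genes (19.4%). Of the 1416 genes higher in CBFb_KD than in Control, 879 (62.1%) were also called higher than in Ring1b_KD, and of the 1382 lower genes, 614 (44.4%) were also called lower than in Ring1b_KD. The CBFb_KD arrays serve in both tests, so these shares are not independent of the first call. Of the at least 2-fold changes, 156 of 182 increases and 24 of 26 decreases differed from Ring1b_KD in the same direction. For 12 genes higher than in Control and 45 genes lower, the difference from Ring1b_KD was called in the opposite direction. Lists varied in how many of their calls differed from Ring1b_KD in either direction. The counts were 33 of 38 for interferon effector genes and 18 of 31 for nuclear pore and transport genes. They were 20 of 63 for nucleolar genes, 2 of 6 for chaperonin and prefoldin genes and 3 of 9 for V-ATPase genes.

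Of the 40 largest increases, 38 were higher than in Ring1b_KD by the direct test. These genes were chosen by their size in the same CBFb_KD arrays, so a high count follows in part from the choice. Of all genes, 10.1% were called higher and 9.31% lower than in Ring1b_KD. Glipr2, a Golgi-associated protein, read 7.59, 7.50 and 7.63 in Ring1b_KD against 10.10, 10.08 and 10.33 in CBFb_KD, a difference of 2.60 (limma adjusted p = 1.38e-07). Kcne3 read 7.15, 6.85 and 6.70 in Ring1b_KD against 9.12, 9.18 and 9.25 (difference 2.28, limma adjusted p = 1.39e-07). The Control arrays of Kcne3 read 7.32, 7.55 and 7.39, so its Ring1b_KD arrays lay below Control and its CBFb_KD arrays above. The exceptions were Ccng2, at 1.86 and 1.41 against the shared Control arrays (direct test, limma adjusted p = 0.243), and Fosl2, at 1.77 and 1.62 (direct test, limma adjusted p = 0.795).

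Of the 40 largest decreases, 35 were lower than in Ring1b_KD, a count that likewise follows in part from how the genes were chosen. Against the same Control arrays, the Ring1b_KD differences of these 40 ran from -1.49 to 2.90 with a median of -0.40, and those of the 40 increases from -0.88 to 1.62 with a median of 0.10. The 5 that did not pass were Ms4a2 (-1.92 in CBFb_KD and -1.49 in Ring1b_KD), Nkx1-2 (-1.27 and -0.61), Ydjc (-0.94 and -0.79), Mex3d (-0.93 and -0.73) and Car12 (-0.92 and -0.71). Far2, which makes fatty alcohols, read 8.92, 8.44 and 8.61 in Ring1b_KD, 7.87, 7.78 and 7.46 in Control and 6.85, 6.38 and 6.11 in CBFb_KD, an order with no overlap between Ring1b_KD and CBFb_KD (difference -2.21, limma adjusted p = 5.38e-06).

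**Figure D5:**
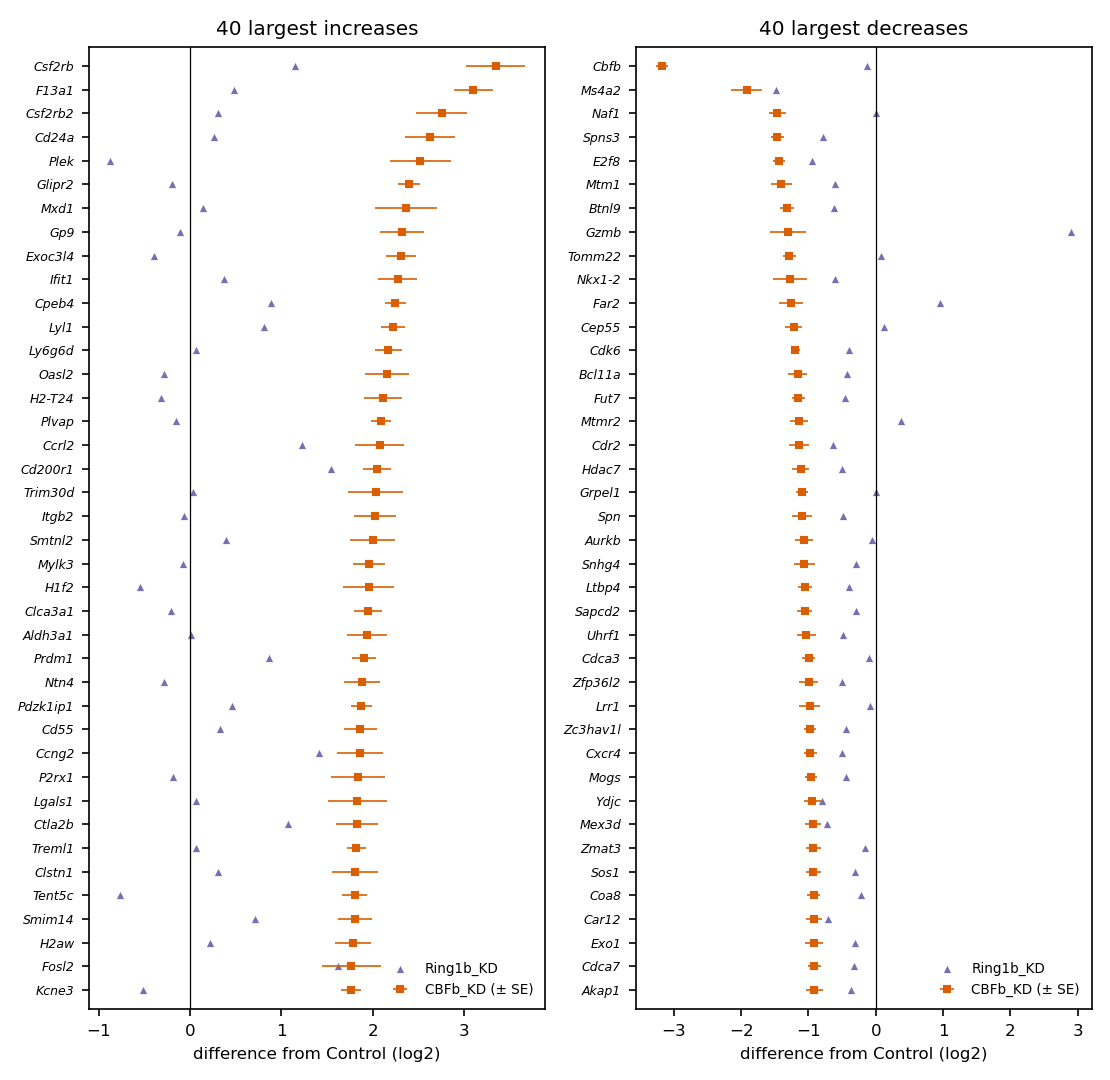
Difference from Control (log2) of the 40 largest increases (left) and decreases (right) in CBFb_KD, with CBFb_KD as squares (bars are 1 SE of the fit) and Ring1b_KD as triangles, both against the same 3 Control arrays. Ring1b_KD lies nearer to 0 for most of the genes, which were chosen by their size in CBFb_KD, and Gzmb stands out at 2.90 in Ring1b_KD.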

How the data were processed

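RNA from L8057 cells was measured on 9 one-colour arrays, 3 each for CBFb_KD, Control and Ring1b_KD. Per the labels' protocols, RNA was primed with oligo-dT and copied in vitro, so values reflect the probed 3′ part of each transcript. The values deposited by the authors are on a log2 scale (3.227 to 15.355 over 45101 probe sets), the software and normalization behind them not being stated here. Array medians ranged over 0.137, so the table was quantile normalized with limma 3.58.1 (R 4.3.3) and 64 control probe sets then removed. The platform annotation gave 1 symbol to 34945 probe sets, several to 932 and none to 9160, and the brightest probe set with 1 symbol stood for its gene, 18193 in all.

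Group means were fitted to the 9 arrays with lmFit and eBayes (trend; 6.80 prior and 6 residual degrees of freedom), with two-sided p-values adjusted over all genes (Benjamini-Hochberg). Calls were made at an adjusted p under 0.05. The script was tested on simulated data. The number of arrays limits the precision. In the replicate block, the number in the label was a factor. Deviations from the group means of same-numbered CBFb_KD and Control arrays correlated at 0.203, 0.377 and 0.2 for numbers 1, 2 and 3 (other numbers at most 0.147). For CBFb_KD and Ring1b_KD the same-number values were 0.0454, 0.104 and -0.0377 (other numbers at most 0.106). The labels do not say that the numbers pair the arrays. The main fit, which gave the calls and p-values, therefore had no such factor, and the block is an alternative to it.

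The groups and gene lists were chosen with earlier results of these data known. The 67 lists held 2453 entries, 2256 of them measured and 20 matched through a synonym. Named genes are Cbfb, its RUNX partners and PRC1 genes, the 40 largest called increases and decreases whose arrays did not overlap and whose higher group mean reached the median gene (7.42), and up to 5 called genes per list and direction by smallest adjusted p. Unnamed gene models were skipped. Promoter windows came from RefSeq (GRCm38.p6).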

Additional observations from a re-analysis of the deposited data

How the results depend on the processing

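Of 411 named genes, 308 kept their direction and call in all 17 other settings, which were the deposited values, median centring, the replicate block, the 6 arrays alone, a robust variance, no trend, averaged probe sets, a filter on dim genes and each of the 9 arrays left out. Leaving out 1 array gave 1751 to 2995 calls in CBFb_KD against Control, 942 to 1524 higher and 809 to 1502 lower, 144 to 218 at least 2-fold higher and 20 to 41 at least 2-fold lower, and 2377 to 3564 calls between the knockdowns. With the replicate block 3142 genes were called, 2766 of them shared with the 2798, and beside the counts given with the lists it changed no other count by more than 1.5 times. Where counts moved, the cause was not tested, beyond the smaller number of arrays. The difference in Bmi1 (0.01) ran from -0.0207 to 0.0807 over the arrays left out. It turned negative without CBFb_KD array 2 (-0.0193) or 3 (-0.0207), Control array 1 (-0.0169) or Control array 2 (-0.0115), none near the threshold. The median difference over all genes was -0.0137, -0.00613 with the values as deposited and -0.0132 under median centring. Of the 411 named genes, 266 had several probe sets. Averaging these made the difference smaller by over 1.5 times for 83 genes and larger for 2, and 33 of the 411 lost their call. Changes close to the floor of the array are compressed, and 3 arrays a group leave small differences unresolved.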

Other observations

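Genes next to a called gene on the chromosome were called in the same direction more often than all genes were. Of 2824 places next to a gene called higher, 398 (14.1%) held another gene called higher, against 7.8% of all genes placed. Of 2757 places next to a gene called lower, 312 (11.3%) held another called lower, against 7.61%. These backgrounds were not matched for signal. In the brightest of the 4 groups by Control mean, 14% of genes were called higher and 20.5% lower. Whether neighbours were alike in signal was not tested. The longest run of genes called in one direction, counting only genes tested, was 8 genes on chromosome 10, Cnn2, Abca7, Arhgap45, Polr2e, Gpx4, Sbno2, Stk11 and Cbarp, all higher. Of these, Cbarp differed by 1.05, Cnn2 by 0.89, Gpx4 by 0.66 and Sbno2 by 0.26 (limma adjusted p = 0.00807, 0.000919, 0.000117 and 0.0467). Runs of 4 higher genes included the guanylate-binding cluster Gbp7, Gbp3, Gbp2b and Gbp2 on chromosome 3, and Lipa, Ifit2, Ifit3 and Ifit1bl1 on chromosome 19. Runs of 4 lower genes included Lpin2, Emilin2, Smchd1 and Ndc80 on chromosome 17. These genes were singled out after their values were seen, and neighbours can share ancestry or cross-matching probes, a part that was not tested.

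Promoter windows of called genes also differed in letters that were searched after the values were seen. The E-box CACGTG was in 12.1% of windows of genes called lower, 8.97% of those called higher and 8.72% of all. The half-site TTTNNCGC of E2F sites was in 12.7%, 5.71% and 6.98%, and TTTGAA, of the cell cycle homology element, in 16.9%, 11.5% and 13.4%. A site for the GATA factors, AGATAA, was in 13.1% of windows of genes at least 2-fold higher, 7.86% of all called higher and 8.09% of all. The median GC content of the windows was 61.3% for genes called lower, 60% for those called higher and 58.3% for all. For genes at least 2-fold higher it was 57.7%. Base composition thus differed between the sets, and its part in these shares was not tested.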
